A study of Mus musculus with 8 samples.

Results

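The genes described are 10 of the 55114 counted in the series, chosen by symbol as genes of goblet cell mucus and of membrane mucins. Of them, 5 encode secreted parts of mucus (Muc2, Fcgbp, Zg16, Clca1 and Tff3), 2 encode factors of goblet cell maturation (Agr2 and Spdef) and 3 encode mucins that stay in the cell membrane (Muc3, Muc4 and Muc13). RNA was taken from the intestinal crypts of 4 wild-type (WT) and 4 Mex3a-/- (KO) C57BL/6 mice, 8 weeks old, the WT mice being littermates of the KO mice. The KO is constitutive, with exon 1 and part of exon 2 of Mex3a removed in every cell, so the mice lack Mex3a outside the epithelium as well. Crypts were shaken off with EDTA and passed through a strainer, with no sorting of cells, and each library came from a separate mouse. The labels give the tissue as intestine and no segment of it.

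Goblet cells are secretory cells of the intestinal epithelium that fill with granules of mucin and release them to form the mucus layer. MUC2, the gel-forming mucin, is the scaffold of that layer, FCGBP, ZG16, CLCA1 and TFF3 are secreted with it, AGR2 is a disulfide isomerase needed to fold mucin in the endoplasmic reticulum, and SPDEF is the transcription factor that drives goblet cell maturation. Membrane mucins are a different class: they are anchored in the apical membrane, mainly of enterocytes, and form the glycocalyx at the brush border. Mex3a encodes an RNA-binding protein of the intestinal stem cell. The KO was studied to learn what Mex3a does in vivo, in normal tissue and in tumor formation. Goblet cells are 1 outcome of crypt cell differentiation.

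Between 20324184 and 24726221 reads per WT mouse and between 23489180 and 30654105 per KO mouse were counted on genes. Mex3a itself had 13.3 ± 2.10 CPM (read counts brought to a common depth with the TMM factors of edgeR) in the WT and 0.613 ± 0.417 in the KO mice (mean ± SD, n = 4 each), and it was the only gene of 16109 tested with an adjusted p under 0.05 (0.00621%; log2 fold change -4.43, SE 0.43, edgeR adjusted p = 0.0310). In both genotypes replicates 1 and 2 carried Y-linked transcripts and replicates 3 and 4 carried Xist.

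The promoter windows of 3 members are shown because they mark where these genes start in RefSeq, against which the counted rows of Muc2 and Muc3 are set further on, and because Fcgbp is the most counted member. Each runs from 250 bases before to 50 bases after the RefSeq start on GRCm38.p6, 5′ to 3′ on the strand of the gene. Capitals mark matches, on either strand, to TGTTTNC (FOXA), TTTATNG (CDX), GGGNGTG (KLF), CCGGAT (SPDEF) and CAGCTG (ATOH1), and on the strand of the gene to TATAAA. The window of Fcgbp is chr7:28070986-28071285 on the plus strand, that of Muc2 is chr7:141690090-141690389 on the plus strand and that of Muc3 is chr5:137165997-137166296 on the minus strand.
Fcgbp: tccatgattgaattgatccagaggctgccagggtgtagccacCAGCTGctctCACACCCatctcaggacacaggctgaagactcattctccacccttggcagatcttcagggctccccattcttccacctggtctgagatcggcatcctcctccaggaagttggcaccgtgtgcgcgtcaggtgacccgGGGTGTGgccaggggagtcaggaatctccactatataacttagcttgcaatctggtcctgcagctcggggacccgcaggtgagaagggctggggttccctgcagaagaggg
Muc2: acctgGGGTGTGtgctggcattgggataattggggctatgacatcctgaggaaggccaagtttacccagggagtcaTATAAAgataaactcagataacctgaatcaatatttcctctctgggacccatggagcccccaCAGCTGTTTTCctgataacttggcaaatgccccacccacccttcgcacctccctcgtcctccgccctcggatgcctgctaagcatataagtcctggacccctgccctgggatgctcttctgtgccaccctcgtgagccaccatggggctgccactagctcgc
Muc3: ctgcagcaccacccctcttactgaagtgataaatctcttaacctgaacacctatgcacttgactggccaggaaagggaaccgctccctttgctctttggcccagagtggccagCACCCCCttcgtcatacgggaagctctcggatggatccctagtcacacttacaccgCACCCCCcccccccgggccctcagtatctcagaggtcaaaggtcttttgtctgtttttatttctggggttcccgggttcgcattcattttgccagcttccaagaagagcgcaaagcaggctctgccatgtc
In the Muc2 window the CAGCTG match shares its last 2 bases with the FOXA match. RefSeq's table held 8 windows of 7 members; Zg16, Clca1 and Tff3 had no entry. The KLF letters were present in 5 of these 8 windows, against 29.2% of all 32851 windows in the table, and the FOXA letters in 3, against 20.5%. Of the others, the CDX letters were in 2 (10.9% of all), the ATOH1 letters in 2 (16.3%), the TATA letters in 2 (8.32%), and the SPDEF letters in 0 (6.04%). These matches are a description of letters in a short window and not of binding.

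Of the 10 members, 9 had a higher fitted level in KO than in WT crypts, beside 7425 of all 16109 genes tested. After adjustment over all 16109 genes no member passed the threshold in edgeR's test (0 of 10, against 0.00621% of all genes). At an unadjusted p under 0.05 there were 3 of 10, the membrane mucin Muc3 and the secreted mucus genes Zg16 and Fcgbp, and all 3 were higher in KO. Of all genes tested, 8.38% had an unadjusted p under 0.05 and 5.33% had one and were higher in KO. The median log2 fold change was 0.25 for the 10 members, 0.38 for the 5 secreted genes, 0.13 for the 2 maturation genes and 0.26 for the 3 membrane mucins, beside -0.016 for all genes tested. Crypts hold several cell types in bulk, so more cells of a type and more RNA per cell cannot be told apart. The labels state no pairing of mice, but the replicate numbers were treated as pairing them because same-numbered mice deviated together. In the fit blocked on the number the count was 5 of 10, Clca1 and Tff3 joining the 3. There, 7.14% of all genes were called and higher in KO.

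**Figure D1:**
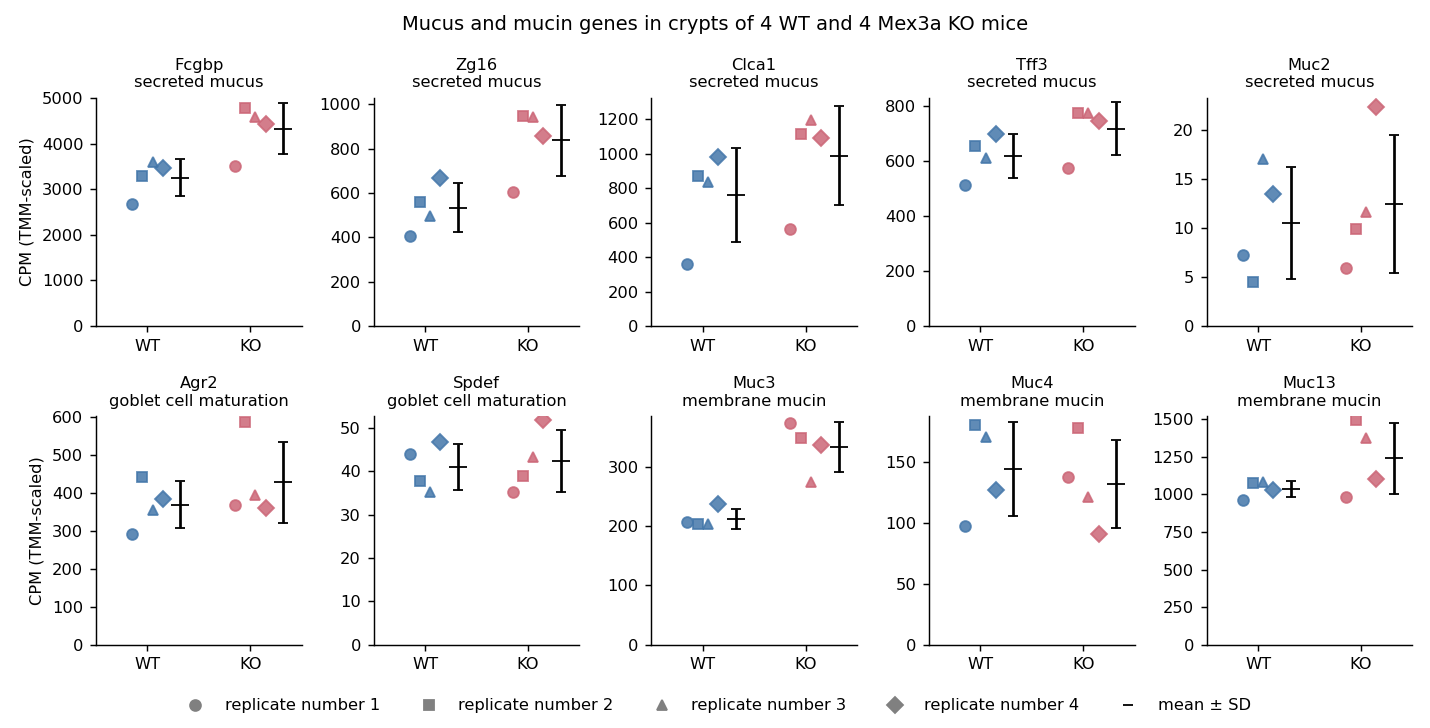
Each panel plots 1 gene, with CPM on a linear axis from 0 and 1 point per mouse (4 WT, 4 KO, the marker shape giving the replicate number); the bar beside the points is the mean ± SD. The 4 KO mice lie above the 4 WT mice for Muc3, while replicate 1 is the lowest KO mouse for Fcgbp, Zg16, Clca1 and Tff3.

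**Figure D2:**
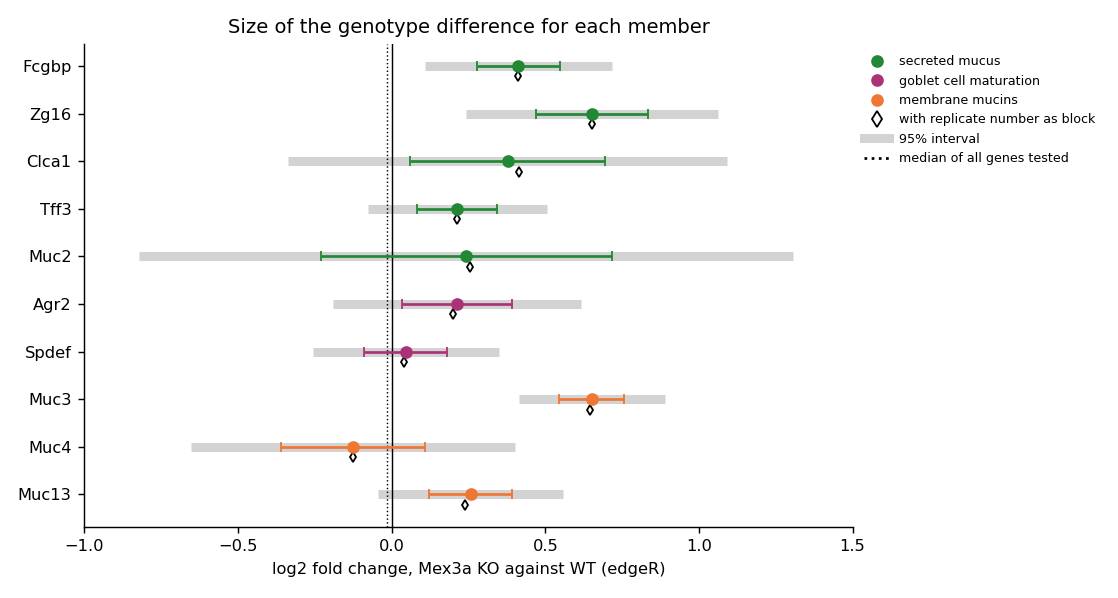
For each gene the point is the edgeR log2 fold change of KO against WT, the thin bar its SE, the gray bar its 95% interval, and the open diamond the value of the fit blocked on the replicate number; the dotted line is the median of all 16109 genes tested. The intervals of Fcgbp, Zg16 and Muc3 lie above 0 and those of the other 7 members include it.

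Fcgbp (ENSMUSG00000047730, chromosome 7, 28071236 to 28120862, GRCm38), whose product binds to MUC2 and is a main protein of mucus, was the most counted member. It had 2667, 3286, 3595 and 3460 CPM in WT replicates 1 to 4 and 3515, 4784, 4592 and 4424 CPM in KO replicates 1 to 4. Of the 4 KO mice, 3 lay above the highest WT mouse, and KO replicate 1 lay within the WT range. The difference was 1.33-fold between the means and 0.41 as a log2 fold change (SE 0.14, edgeR unadjusted p = 0.0133, adjusted p = 0.518; two-sided exact permutation p = 0.0571).

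Zg16 (ENSMUSG00000049350, chromosome 7, 127050156 to 127087328) encodes a small lectin of the mucus that binds the wall of Gram-positive bacteria. It had 405.1, 559.7, 497.9 and 668.6 CPM in the WT mice and 603.3, 945.1, 943.8 and 856.9 CPM in the KO mice. As for Fcgbp, KO replicate 1 overlapped the WT range and the other 3 KO mice lay above it. The KO mean was 1.57 times the WT mean, with a log2 fold change of 0.65 (SE 0.18, edgeR unadjusted p = 0.00569, adjusted p = 0.518; exact permutation p = 0.0571). DESeq2 gave Zg16 an adjusted p of 0.0526.

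Clca1 (ENSMUSG00000028255, chromosome 3, 145003817 to 145032776), a secreted metalloprotease of the mucus, was the most uneven of the abundant mucus genes. It had 362.4, 871.7, 834.0 and 977.6 CPM in WT and 561.6, 1114, 1193 and 1088 CPM in KO. Replicate 1 was the low mouse in both genotypes, and without regard to the numbers the groups overlapped. Its log2 fold change was 0.38 (SE 0.32, edgeR unadjusted p = 0.264, adjusted p = 0.790), with a 95% interval from -0.34 to 1.09, and it was 0.14 without WT replicate 1 and 0.57 without KO replicate 1. Within each of the 4 pairs of equal number the KO mouse had the higher value, and the blocked fit gave 0.41 (unadjusted p = 0.00450, edgeR adjusted p = 0.239).

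Tff3 (ENSMUSG00000024029, chromosome 17, 31125306 to 31129646), the trefoil peptide that goblet cells secrete with mucin, had 512.1, 655.4, 610.5 and 699.9 CPM in WT and 574.6, 776.8, 774.9 and 747.6 CPM in KO. Again KO replicate 1 was low and inside the WT range, and the other 3 KO mice were above it. The log2 fold change was 0.21 (SE 0.13, 95% interval -0.079 to 0.51, edgeR unadjusted p = 0.133, adjusted p = 0.687). With the block it was 0.21 with an unadjusted p of 0.0325 (edgeR adjusted p = 0.398), and without KO replicate 1 it was 0.31 with an unadjusted p of 0.0240 (edgeR adjusted p = 0.313), in a fit where 7.94% of all genes were called at that threshold and higher in KO. Without WT replicate 1 it was 0.13, with an unadjusted p of 0.316.

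The gel-forming mucin itself was poorly counted. The row named Muc2 (ENSMUSG00000025515, chromosome 7, 141690340 to 141754693) held 156, 96, 349 and 323 reads in the WT mice and 140, 256, 269 and 674 in the KO mice, or 7.21, 4.49, 17.0 and 13.5 CPM against 5.88, 9.93, 11.6 and 22.4 CPM. These values overlapped widely, with a coefficient of variation of 54.4% in WT and 56.6% in KO, against 5.21% to 35.8% for the other members in WT. The log2 fold change of the row was 0.24 (SE 0.47, 95% interval -0.82 to 1.31, edgeR unadjusted p = 0.620, adjusted p = 0.934). It ran from -0.21 without KO replicate 4 to 0.57 without WT replicate 3, and was -0.010 without WT replicate 2.

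A further pair of rows, which the table leaves without a gene name, lie on a patch scaffold of the assembly with coordinates that overlap the Muc2 interval, and were picked out after their values were seen. The match takes the numbering of the scaffold to follow that of chromosome 7, which was not tested; RefSeq's Muc2 runs from 141690340 to 141754691. One row, on the plus strand from 141690249 to 141722629, starts inside the Muc2 promoter window printed above and is described in the table by von Willebrand factor type D, C8 and cystine-knot domains, and the other, on the minus strand from 141704458 to 141713641, by the WxxW repeat region of the mucin-2 protein. They held 1423 to 3921 and 6108 to 15313 reads per mouse, so that the row named Muc2 made up 1.26% to 3.88% of the sum of the 3 rows. GENCODE M21 tags Muc2 as a fragmented locus, and the longest of its 8 Muc2 transcripts has 2926 bases. Most of the sum came from the minus-strand row, on the strand opposite to Muc2. Whether all reads of both unnamed rows come from Muc2 was not tested. Summed over the 3 rows, the level was 426.8, 356.3, 439.4 and 485.6 CPM in the WT mice and 366.9, 486.2, 605.4 and 661.9 CPM in the KO mice. Of the KO mice, 3 were then above the highest WT mouse and KO replicate 1 was again low. Fitted as 1 gene, the sum had a log2 fold change of 0.31 (SE 0.18, edgeR unadjusted p = 0.112, adjusted p = 0.668); of the parts, the row with the von Willebrand domains had 0.41 (SE 0.18, unadjusted p = 0.0455, edgeR adjusted p = 0.587) and the repeat row had 0.29 (SE 0.17, unadjusted p = 0.125, edgeR adjusted p = 0.679).

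**Figure D3:**
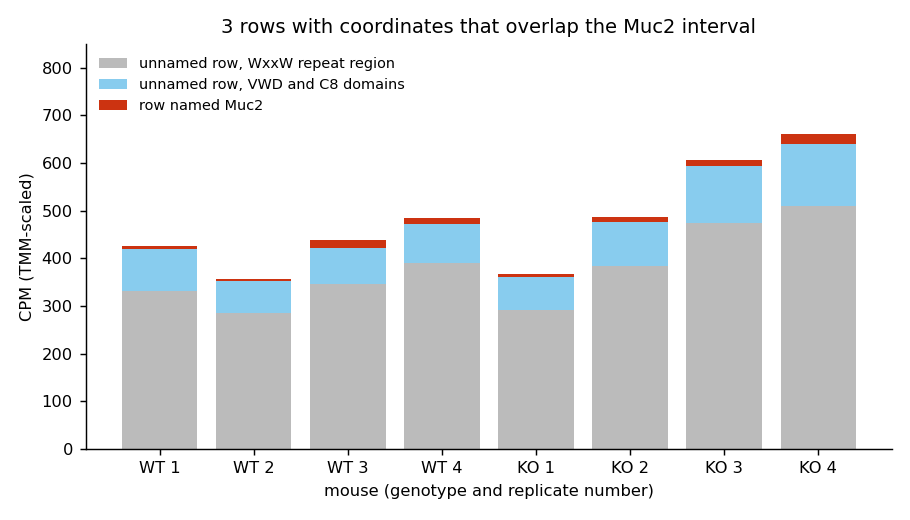
Stacked bars give CPM per mouse (4 WT, 4 KO) of the row named Muc2 and of the 2 unnamed rows with coordinates that overlap its interval, on a linear axis from 0. The row named Muc2 is the thin top layer, 1.26% to 3.88% of each bar, and the bars of KO replicates 2, 3 and 4 are above that of every WT mouse.

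For neither maturation gene was a difference between the genotypes called. Spdef (ENSMUSG00000024215, chromosome 17, 27714352 to 27728955), the goblet cell transcription factor, had 44.1, 37.8, 35.4 and 46.8 CPM in WT and 35.1, 39.0, 43.4 and 51.9 CPM in KO. The KO mice spanned the WT range and reached beyond it at both ends. The log2 fold change was 0.046 (SE 0.13, 95% interval -0.26 to 0.35, edgeR unadjusted p = 0.739, adjusted p = 0.960), and it was -0.013 without WT replicate 3 and -0.066 without KO replicate 4. Agr2 (ENSMUSG00000020581, chromosome 12, 35992907 to 36004087), the isomerase that folds mucin, had 292.1, 442.7, 355.3 and 384.5 CPM in WT and 367.7, 586.3, 394.6 and 359.8 CPM in KO. KO replicate 2 alone lay above the WT mice, and replicate 2 was also the highest WT mouse. Its log2 fold change was 0.21 (SE 0.18, 95% interval -0.19 to 0.62, edgeR unadjusted p = 0.266, adjusted p = 0.791), and with 1 mouse left out it ran from 0.023 without KO replicate 2 to 0.31 without WT replicate 2.

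Among the membrane mucins, Muc3 (ENSMUSG00000037390, chromosome 5, minus strand, 137134922 to 137149322) separated the genotypes. Muc3 had 206.9, 203.1, 203.0 and 237.5 CPM in WT and 375.1, 348.4, 274.6 and 337.3 CPM in KO. Every KO mouse was above every WT mouse, which held for 1 of the 10 members and for 2.17% of all genes tested. The means were 213 ± 16.7 and 334 ± 42.6 CPM (SD, n = 4 each), 1.57-fold apart, and the exact permutation p was 0.0286, the smallest that free assignment of 4 against 4 mice allows; this test leaves the pairing out, and within 4 pairs the smallest possible p would be 0.125. The log2 fold change was 0.65 (SE 0.11, 95% interval 0.41 to 0.89, edgeR unadjusted p = 0.000143, adjusted p = 0.329). The call depended on the tool: DESeq2 gave an adjusted p of 6.45e-05, and over all alternatives the adjusted p of Muc3 ranged from 6.45e-05 to 0.788, the log2 fold change staying between 0.59 and 0.73.

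The counted model of Muc3 is shorter than the gene in RefSeq, which runs from 137134924 to 137166048. The lincRNA Gm3054 (137154029 to 137166070, same strand) lies almost entirely inside RefSeq's Muc3 and overlaps the promoter window printed above. Gm3054 had 14.1, 6.35, 16.6 and 17.9 CPM in WT and 14.1, 15.3, 23.1 and 30.8 CPM in KO, a log2 fold change of 0.60 (SE 0.34, edgeR unadjusted p = 0.111, adjusted p = 0.665). Added to Muc3, a choice made after seeing the data, it left the log2 fold change at 0.65 (SE 0.10, edgeR unadjusted p = 0.000114, adjusted p = 0.317), and the genotypes still did not overlap. The related gene Muc3a, which could share reads with Muc3, averaged 66.6 ± 16.1 CPM over the WT mice and 67.3 ± 8.81 CPM over the KO mice (SD, n = 4 each), with a log2 fold change of 0.016 (edgeR unadjusted p = 0.925).

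Muc13 (ENSMUSG00000022824, chromosome 16, 33794037 to 33819934), a short membrane mucin with a single transmembrane span, had 966.2, 1075, 1084 and 1027 CPM in WT and 986.3, 1494, 1375 and 1106 CPM in KO. The WT mice lay close together, 3 KO mice were above them and KO replicate 1 was among them. The log2 fold change was 0.26 (SE 0.13, 95% interval -0.045 to 0.56, edgeR unadjusted p = 0.0864, adjusted p = 0.640). Without KO replicate 1 it was 0.35, with an edgeR unadjusted p of 0.0146 (adjusted p = 0.278). In that fit 7.94% of all genes had an unadjusted p under 0.05 and were higher in KO. Without KO replicate 2 the log2 fold change of Muc13 was 0.16, with an edgeR unadjusted p of 0.245. The antisense transcript Gm15657 overlaps the start of Muc13, and the sources used here do not say whether counting used strand.

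Muc4 (ENSMUSG00000079620, chromosome 16, 32735886 to 32782391), a large membrane mucin whose EGF-like domains bind ERBB2, was the 1 member with a lower fitted level in KO. It had 97.8, 181.1, 171.1 and 127.1 CPM in WT and 137.9, 178.2, 121.8 and 90.9 CPM in KO. The ranges overlapped almost entirely. The log2 fold change was -0.13 (SE 0.23, 95% interval -0.65 to 0.40, edgeR unadjusted p = 0.602, adjusted p = 0.929), and it was 0.0016 without WT replicate 2 and 0.017 without KO replicate 4. Muc20 on the opposite strand overlaps Muc4 and averaged 2.24 ± 0.886 CPM over the WT mice and 1.68 ± 0.276 CPM over the KO mice (SD, n = 4 each).

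Set against each other, the secreted and the membrane genes were not separated by genotype. The mean log2 CPM of the 5 secreted genes minus that of the 3 membrane mucins was 0.0082, 0.013, 0.38 and 0.56 in WT replicates 1 to 4 and -0.16, 0.21, 0.60 and 0.86 in KO replicates 1 to 4. The genotypes overlapped. Without the row named Muc2 the values were 1.31, 1.57, 1.54 and 1.84 in WT and 1.29, 1.64, 1.98 and 2.03 in KO, and they overlapped as well. The mean was 0.24 ± 0.28 in WT and 0.38 ± 0.44 in KO (SD, n = 4), a difference of 0.14 beside a pooled SD of 0.37 between mice, given no test. Within the pairs of equal number, KO minus WT was -0.17, 0.20, 0.22 and 0.29 for numbers 1 to 4, higher in KO in 3 of 4 pairs with an SD of 0.21. It was -0.052 without Muc4 and 0.17 without the row named Muc2, and it ran from -0.023 without KO replicate 4 to 0.31 without KO replicate 1.

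Per length, in FPKM (counts divided by gene length and by depth), the members differed by orders of magnitude. In WT the mean FPKM was 1247 for Tff3, 421 for Zg16, 339 for Muc13, 307 for Fcgbp, 283 for Agr2, 200 for Clca1 and 109 for Muc3, then 17.6 for Spdef, 12.2 for Muc4 and 1.47 for the row named Muc2. From Zg16 down to Muc3 each gene overlapped the next in the WT mice. Tff3, Muc3 and Muc4 did not overlap their lower neighbour, which for Muc4 is the row named Muc2. The lowest Spdef value and the highest Muc4 value of the WT mice met at 15.3 FPKM. Tff3 stood at the 99.8th percentile of all genes tested and the row named Muc2 at the 29.7th. In KO the order was the same except that Fcgbp, at 411, passed Muc13, at 407. These levels rest on the gene lengths in the table, which for Muc2 and Muc3 are those of the models described above.

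Across mice, the 4 abundant secreted genes varied together. With each genotype's mean removed, Pearson's r of log2 CPM over the 8 mice was between 0.87 and 0.99 for the 6 pairs among Fcgbp, Zg16, Clca1 and Tff3. Muc13 followed them less closely, at 0.63 to 0.77, and Muc3 did not, at -0.28 to -0.17. These are descriptions over 8 libraries, with no test, and a common effect of depth or preparation was not tested. In WT replicate 1 all 4 genes were at their lowest, with Clca1 1.18 log2 units under the mean of the 8 mice, and in KO replicate 1 they were the lowest of the KO mice, while Muc3 was at its highest there, 0.50 log2 units above.

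**Figure D4:**
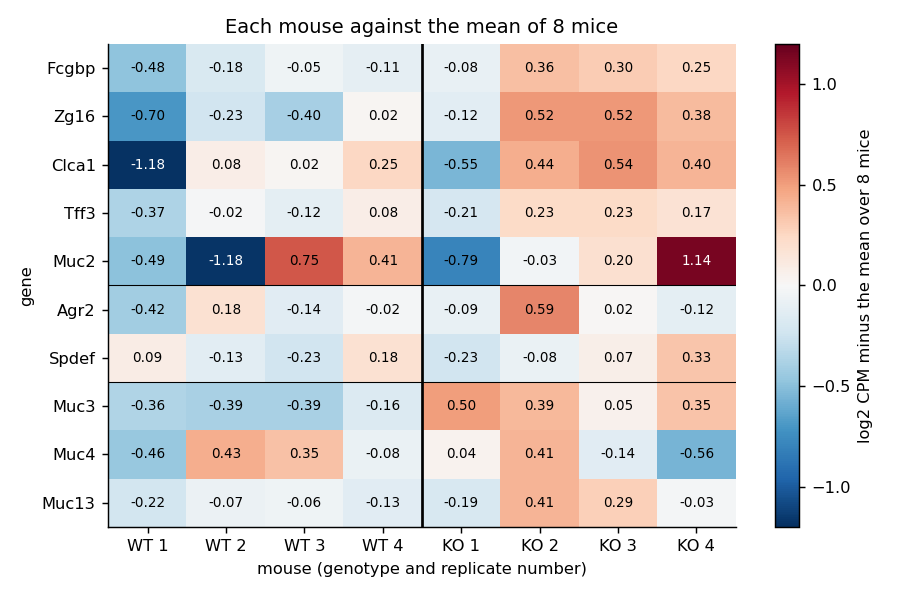
Rows are genes, columns are mice (4 WT, 4 KO), and each cell gives and colors the log2 CPM of that mouse minus the gene's mean over 8 mice. Fcgbp, Zg16, Clca1 and Tff3 are negative in WT and KO replicate 1 and positive in KO replicates 2, 3 and 4, and Muc3 is negative in all WT mice and positive in all KO mice.

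Genes that act with the members were counted from lists, to be read against the 8.38% of all genes with an unadjusted p under 0.05 and the 5.33% that also were higher in KO. Of 12 regulators of secretory and goblet cells (Atoh1 and Klf4 among them), 0 had an unadjusted p under 0.05, with a median log2 fold change of 0.11. Klf4, a zinc-finger factor of goblet cell differentiation, averaged 92.7 ± 26.3 CPM over the WT and 123 ± 20.5 CPM over the KO mice (SD, n = 4 each; log2 fold change 0.41, edgeR unadjusted p = 0.0750, adjusted p = 0.623), and Atoh1, which starts secretory fate, had 24.2 ± 3.44 and 27.1 ± 6.16 (log2 fold change 0.16, edgeR unadjusted p = 0.364, adjusted p = 0.838). Of 21 other goblet cell genes tested, KO levels were higher for 0 and lower for 2 at that threshold, the median being 0.023. The 2 were Retnlb, a goblet cell antimicrobial peptide, at -2.15 (edgeR unadjusted p = 0.00807, adjusted p = 0.518), counted at 1 to 52 reads per mouse, and Spink4, a secreted protease inhibitor, at -0.38 (edgeR unadjusted p = 0.0483, adjusted p = 0.589).

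Of 31 genes of mucin O-glycosylation tested, which build the sugar chains that make up most of a mucin's mass, 4 were called higher and 1 lower by their unadjusted p in edgeR (threshold 0.05), with a median log2 fold change of 0.11. Those that were higher were the branching enzyme Gcnt1 (1.47), the core 3 synthase B3gnt6 (1.32), the sulfate transporter Slc26a2 (0.43) and the initiating transferase Galnt6 (0.32). The lower one was the sialyltransferase St6galnac2 (-0.24, unadjusted p = 0.0113, edgeR adjusted p = 0.518), whose symbol stands on 2 overlapping rows, the less counted of which had -0.27 (unadjusted p = 0.0823). Gcnt1 and B3gnt6 were near the floor, at means of 1.10 and 0.511 CPM in WT, and Gcnt1 rested largely on KO replicate 4, with a log2 ratio of mean CPM of 1.47 with that mouse and 0.72 without it. Of 12 genes of mucus release and remodelling tested, 3 were higher and 0 lower, with a median of 0.11. They were both subunits of the metalloprotease meprin (Mep1b at 1.47 and Mep1a at 1.27), and Clca4a at 1.27. Of 7 partners of membrane mucins, 2 were higher and 0 lower, with a median of 0.064: Pdzk1, a PDZ scaffold of the brush border, at 1.86, and the lectin Lgals3 at 0.75. No gene of these lists had an adjusted p under 0.05; the smallest was 0.518.

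No marker of another cell type passed the adjusted threshold, and the lists are given by their unadjusted counts and sums. Of all 16109 genes tested, 7425 had a higher fitted level in KO. All 13 enterocyte markers had a higher fitted level in KO (5 of them with an unadjusted p under 0.05 by edgeR, Apoa1 at 1.78, Anpep at 1.40 and Krt20 at 1.05 having the largest log2 fold changes; median 0.90), and their summed level ran from 2456 to 5769 CPM in WT and from 3673 to 12580 CPM in KO. By mouse the sum was 2996, 2456, 3347 and 5769 CPM in WT and 3673, 4579, 12580 and 7895 CPM in KO. The WT mouse with the highest sum also had the highest Muc3 of the WT mice, and the KO mouse with the highest sum had the lowest Muc3 of the KO mice. All 5 ileum markers were higher in KO at that level (Slc10a2 at 1.78, Slc51b at 1.51 and Fabp6 at 1.34 the most), with a median of 1.34. Their sums of 153 to 490 CPM in WT and 513 to 988 CPM in KO did not overlap. The lowest sum of each genotype was that of replicate 1, where the secreted mucus genes were also low. KO replicate 1 was above every WT mouse in this sum, while its Fcgbp, Zg16, Clca1 and Tff3 lay within the WT range. All 7 stem cell markers had a lower fitted level in KO (4 at that level, among them Lgr5 at -0.50, Olfm4 at -0.34 and Smoc2 at -0.31; median -0.25; sums of 5334 to 5948 CPM in WT and 4023 to 4955 CPM in KO). The 9 Paneth markers were lower in the fit (0 at that level, median -0.70), with sums from 17310 to 57430 CPM in WT, the highest in WT replicate 1, and from 8766 to 29790 CPM in KO. Of 10 immune markers 2 were higher at that level (Cd3e at 1.60 and Cd8a at 1.29; median 0.69; sums of 39.3 to 61.5 CPM in WT and 46.1 to 80.0 CPM in KO). Of the remaining lists, proliferation (7 tested), tuft (5) and stroma (5) markers had 0 genes at that level, enteroendocrine markers 1 of 8 (Sct, 0.36), colon markers 1 of 3 (Mptx1, -0.89), duodenum and jejunum markers 1 of 7 (Onecut2, -0.66) and blood markers 1 of 1 (Hba-a1, -1.26). None of the enterocyte, ileum, stem cell, Paneth and immune markers had 0 counts in all mice, none of any list had an adjusted p under 0.05 (edgeR), and their part in the differences of the members was not tested.

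By profile over the 8 mice, among 9941 other genes with a mean log2 CPM of at least 3, those most like the row named Muc2 were Clmn (Pearson's r 0.97), Casp8 (0.96), Impad1 (0.96), Rnf31 (0.95) and Gse1 (0.94). Those most like Muc3 were Commd10 (0.97), Pnpla2 (0.93), Marveld2 (0.92), Dock6 (0.89) and Mvk (0.89). All of these had a higher fitted level in KO, as Muc3 had (log2 fold change 0.20 to 0.55). The genotype means were not removed here, so a shared genotype difference enters these r. Neither list holds another mucin or mucus gene named here. These r are the highest of many over 8 mice and are given as a description.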

How the data were processed

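RNA-seq of intestinal crypts from 8 mice was analysed, 4 WT and 4 KO, grouped by their labels. The files deposited by the authors hold unnormalized counts for each gene and FPKM values (counts divided by gene length and depth). Per the submitters' processing notes, CASAVA, HISAT2 2.0.5 and featureCounts 1.5.0-p3 were used; the strand setting is not given in the sources used here, and coordinates are those of GRCm38. The authors' own fold changes and p-values were not used. Counts were fitted with edgeR 4.0.16 in R 4.3.3 (filterByExpr with a minimum count of 10, TMM, quasi-likelihood test, genotype as the only term), all 8 mice entering the fit, with Benjamini-Hochberg adjustment over 16109 genes. Intervals are 95% intervals from the fit. Single genes also had a two-sided exact permutation test over 70 free assignments, without the pairing (smallest p 0.0286). P-values measure the spread between these mice.

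The members and gene lists were chosen with earlier results of these data known. Named genes are the 10 members, Mex3a, up to 3 genes per list with the largest log2 fold change among those with an unadjusted p under 0.05, and the 5 genes most like Muc2 and Muc3; Galnt6, St6galnac2, Klf4, Atoh1, Muc1, Muc3a, Muc20, Gm15657, Gm3054, the unnamed rows and the gastric-type genes were added after values were seen. The labels give no pairing. Same-numbered mice deviated together from their genotype means (correlations 0.129 to 0.501 over all genes tested). All were over a limit of 0.1, so the numbers were treated as pairing the mice. Mice of different numbers were not compared in this way, and same-numbered mice also shared the Xist or Y group. Alternatives were DESeq2 1.42.0, other size factors and filters, the block, the Xist or Y group as a covariate, limma 3.58.1 on log2 FPKM, summed rows and leaving out each mouse. Promoters came from RefSeq (GRCm38.p6), gene models from GENCODE M21. Figures were drawn with matplotlib 3.10.9 in Python 3.11.15.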

Additional observations from a re-analysis of the deposited data

Results flagged for a closer look

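Within a genotype, 1 mouse stood far from the other 3 for 4 members, the gap to the nearest of them exceeding Dixon's 95% limit as a part of the range. In KO, replicate 1 was far below the others for Clca1, with a ratio of 0.834, and for Tff3, with a ratio of 0.855. In KO, replicate 2 was far above the others for Agr2, with a ratio of 0.846. In WT, replicate 4 was above the others for Muc3, with a ratio of 0.888, where the other 3 WT mice lay within 203.0 to 206.9 CPM. In all, 28 groups of 4 were examined, of which chance would mark about 1.4.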

How the results depend on the processing

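Fcgbp, Zg16 and Muc3 kept their direction and an unadjusted p under 0.05 under all 19 alternatives, with log2 fold changes of 0.33 to 0.50, 0.54 to 0.78 and 0.59 to 0.73. The number of members with an unadjusted p under 0.05 was 3 except with the replicate block, where it was 5, and when 1 mouse was left out, where it was 3 to 5; the 5 came without KO replicate 1, where 2133 of all 16428 genes tested had an unadjusted p under 0.05 in edgeR, 7.94% of all genes being called and higher in KO. Genes with an adjusted p under 0.05 numbered 1 in the edgeR fit, 93 with DESeq2, 2 without a filter, 4 with the Xist or Y group as a covariate, 2 with limma on log2(FPKM + 1) or log2(FPKM + 0.1), and 3 with limma without a filter. They numbered 0 with edgeR and at least 10 counts in every mouse (1256 unadjusted), 0 with edgeR and the replicate block (1815 unadjusted), and 0 to 4 with 1 mouse left out; Muc3 was the only member to pass, with DESeq2. The block changed no other call of a member than those of Clca1 and Tff3. With 1 mouse left out, the log2 fold change ran from -0.21 to 0.57 for the row named Muc2, from -0.30 to 0.017 for Muc4 and from -0.066 to 0.13 for Spdef, each crossing 0; the cause was not tested. The difference between secreted and membrane genes moved by less than the pooled SD of all 8 mice, 0.37, under its alternatives (-0.052 to 0.31). The alternatives that sum rows for Muc2 and Muc3 and that leave out Muc2 were chosen after seeing the data. The row named Muc2 had the fewest reads of the members, 96 to 674 per mouse, and Spdef, the next lowest, had at least 724 in every mouse.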

Other observations

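The gastric-type mucin genes varied far more between mice than between genotypes. Muc5ac, the gel-forming mucin of the stomach surface, had 1.29, 37.4, 14.3 and 111 CPM in WT replicates 1 to 4 and 34.9, 4.38, 0.260 and 42.5 CPM in KO replicates 1 to 4. Muc6, the mucin of gastric and duodenal glands, had 12.5, 21.9, 16.4 and 116 CPM in WT and 49.2, 6.75, 1.25 and 19.5 CPM in KO. Tff2, the trefoil peptide secreted with MUC6, had 13.6, 44.5, 23.4 and 254 CPM in WT and 75.0, 6.13, 0.216 and 37.2 CPM in KO. WT replicate 4 was the highest mouse and KO replicate 3 the lowest for all 3 genes. Their log2 fold changes were -0.997 (SE 1.27), -1.12 (SE 0.995) and -1.50 (SE 1.24), with edgeR unadjusted p of 0.450, 0.287 and 0.254. Their sign rested on WT replicate 4: without it the WT means were 17.6, 16.9 and 27.2 CPM, below the KO means of 20.5, 19.2 and 29.6 CPM. Of the 5 mucin genes tested besides the members (Muc1, Muc3a, Muc5ac, Muc6 and Muc20), 0 had an unadjusted p under 0.05 (edgeR), and the median log2 fold change was that of Muc5ac. KO replicate 3, the lowest mouse for these genes, had the highest Clca1 of all mice.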
